A study of Mus musculus with 13 samples.

Results

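The nuclear-encoded genes of the respiratory chain and of the ATP synthase were examined in mouse quadriceps muscle in which DOR, an earlier name of Trp53inp2, was ablated or increased. Genes were taken by symbol: those starting with Ndufa, Ndufb, Ndufc, Ndufs, Ndufv, Sdha, Sdhb, Sdhc, Sdhd, Uqcr, Cox4i, Cox5, Cox6, Cox7, Cox8, Atp5f, Atp5m or Atp5p, with the Ndufaf assembly factors left out. Of 17097 genes with a probe set assigned to a single symbol, 84 met this rule, and 83 of them had a mean log2 signal of 4.9 or more over the 13 arrays, as did 10425 genes in all. The gene that did not pass was Cox7b2, a testis isoform of a cytochrome c oxidase subunit, with a mean log2 signal of 2.94, and the dimmest gene that passed was Cox6b2, another testis isoform, at 5.28. The 83 genes comprised 32 of complex I, 4 of complex II, 4 assembly factors of complex II (Sdhaf1 to Sdhaf4, which share the start of the symbol Sdha), 7 of complex III, 18 of complex IV, 17 of complex V (the ATP synthase) and 1 annotated pseudogene, Ndufs5-ps. The signal of Ndufs5-ps is uncertain, since a probe set of a pseudogene can also detect its gene, Ndufs5.

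The study hybridised total RNA of quadriceps from male C57Bl/6 mice aged 4 months to Affymetrix mouse strip arrays, with 1 array for each titled mouse. There were 3 arrays labelled SKM-KO, 3 labelled C, 4 labelled SKM-Tg and 3 labelled Wt. SKM-KO was read as DOR ablation in skeletal muscle and C as its control, and SKM-Tg as DOR gain of function and Wt as its control, from the group names and the design text. The mice were fed standard chow, and all groups share strain, sex, age and diet by the labels. The Cre line, the promoter driving the transgene and the alleles carried by C are not given in the sources used here. Neither are litters, strips, scan times or other batches, so p-values measure the spread between these arrays, and a batch shared by the mice of 1 pair of groups cannot be told apart from Wt minus C.

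The respiratory chain passes electrons from NADH and succinate to oxygen in the inner mitochondrial membrane. Complex I (NADH dehydrogenase) and complex II (succinate dehydrogenase) feed ubiquinone, complex III passes the electrons to cytochrome c, and complex IV (cytochrome c oxidase) hands them to oxygen. The proton gradient built on the way drives the ATP synthase. Muscle is rich in these proteins, oxidative fibres more so than glycolytic ones, and several complex IV subunits exist as a ubiquitous isoform and a heart and skeletal muscle isoform. Most subunits are encoded in the nucleus, where the factors NRF1 and GABP, an ETS protein, and the oestrogen-related receptors are known regulators of many of them. Trp53inp2 itself encodes a protein that takes part in autophagosome formation, and autophagy is 1 route by which mitochondria are degraded. In whole muscle, fewer fibres of a type and less RNA per fibre cannot be told apart.

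The promoters of 3 complex IV isoform genes are shown because Cox6a1 and Cox8a varied more between arrays than their muscle partners Cox6a2 and Cox8b, as described further on. Other ubiquitous isoforms, read from brighter probe sets, did not share this. Sequences are RefSeq's for GRCm38.p6, the 250 bases before the annotated start, written 5′ to 3′ on the strand of the gene. Cox6a1 lies at chr5:115348959-115349208 on the minus strand, Cox8a at chr19:7217617-7217866 on the minus strand and Cox8b at chr7:140900447-140900696 on the minus strand. Capitals mark matches, on either strand, to the NRF1 core GCATGCG, the ETS/GABP core CCGGAAG or the oestrogen-related receptor core AAGGTCA.
Cox6a1: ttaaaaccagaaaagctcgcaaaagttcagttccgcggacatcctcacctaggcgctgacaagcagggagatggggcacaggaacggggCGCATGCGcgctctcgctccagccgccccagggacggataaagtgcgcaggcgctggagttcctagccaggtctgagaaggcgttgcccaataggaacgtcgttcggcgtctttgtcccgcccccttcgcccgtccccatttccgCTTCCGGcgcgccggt
Cox8a: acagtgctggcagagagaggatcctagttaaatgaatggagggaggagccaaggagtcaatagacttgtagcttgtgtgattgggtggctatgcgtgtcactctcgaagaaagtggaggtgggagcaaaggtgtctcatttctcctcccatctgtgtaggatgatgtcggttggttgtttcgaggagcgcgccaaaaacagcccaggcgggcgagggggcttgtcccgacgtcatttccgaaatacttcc
Cox8b: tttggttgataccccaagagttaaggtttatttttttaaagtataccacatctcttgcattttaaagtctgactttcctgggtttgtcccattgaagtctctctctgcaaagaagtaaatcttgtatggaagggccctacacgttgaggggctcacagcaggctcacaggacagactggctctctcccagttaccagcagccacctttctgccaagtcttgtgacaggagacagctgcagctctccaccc
Cox6a1, the ubiquitous isoform of subunit VIa, has a pair of overlapping NRF1 matches beginning 160 and 161 bases before the start and an ETS/GABP match beginning 16 bases before it. Neither Cox8a nor Cox8b, the ubiquitous and the muscle isoform of subunit VIII, holds any of these letters in this window. Promoters of 67 of the 83 genes were matched, 72 promoters in all. The NRF1 core stood in 12.5% of them, against 5.1% of the 10786 promoters of genes tested and 3.02% of all 32851 promoters. The ETS/GABP core stood in 16.7%, against 12.5% of promoters of genes tested and 6.91% of all. The oestrogen-related receptor core stood in 5.56%, against 2.99% and 4.08%. The 9 genes with an NRF1 match were Atp5mc2, Atp5pf, Atp5me, Atp5mg, Cox6a1, Ndufa11, Ndufa6, Ndufa8 and Sdhb. The cores can overlap other motifs, and a match describes letters only.

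The targeted gene was checked first. Trp53inp2 had log2 signals of 8.58, 8.79 and 8.99 on the SKM-KO arrays, against 11.06, 11.19 and 11.15 on the C arrays. It had 11.11, 11.03, 11.28 and 11.24 on the SKM-Tg arrays, against 11.20, 11.46 and 11 on the Wt arrays. The SKM-KO arrays lay below all others, and the SKM-Tg and Wt arrays overlapped, with a log2 difference of -0.06 (95% interval -0.33 to 0.22). Whether this 1 probe set covers the transcript of the transgene is not stated in the sources used here, so directions below are those of the arrays labelled SKM-Tg and Wt. All 10 skeletal muscle fibre markers passed the filter and none of the 4 measured heart muscle markers did.

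One array stood apart from the rest. On Wt 2, 38 of the 83 genes lay more than 0.2 (log2) from their own mean over the 13 arrays, 22 above it and 16 below it. The number was 17 on SKM-Tg 3, 14 on SKM-Tg 4, 10 on SKM-Tg 2, 10 on Wt 1 and 2 to 8 on each of the other 8 arrays. Over all genes tested the share past 0.2 was 46.9% on SKM-Tg 3 and 30.8% on SKM-Tg 4. It was 25.7% on SKM-Tg 2, 31.8% on Wt 1 and 25.3% to 32.5% on those other 8. Wt 2 was the highest or lowest array for 47 genes (56.6%). The same held for 63% of all genes tested, and 70.8% of all genes tested lay more than 0.2 from their mean on Wt 2, against 45.8% of the respiratory genes. The mean log2 signal of 11 nonspecific control probe sets with 15 to 25 G or C bases was 5.71 on Wt 2, 5.02 on SKM-Tg 3, 4.74 on Wt 1 and 4.21 to 4.49 on the other 10 arrays. The difference between 3′ and 5′ probe sets of Gapdh, a sign of RNA integrity, was 0.23 to 0.30 on all 13 arrays. The part of the control signal in the gene values was not tested beyond a fit with that signal as a covariate. The counts and summaries on SKM-Tg and Wt, and the genes that shifted most, are therefore also given without Wt 2.

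**Figure D1:**
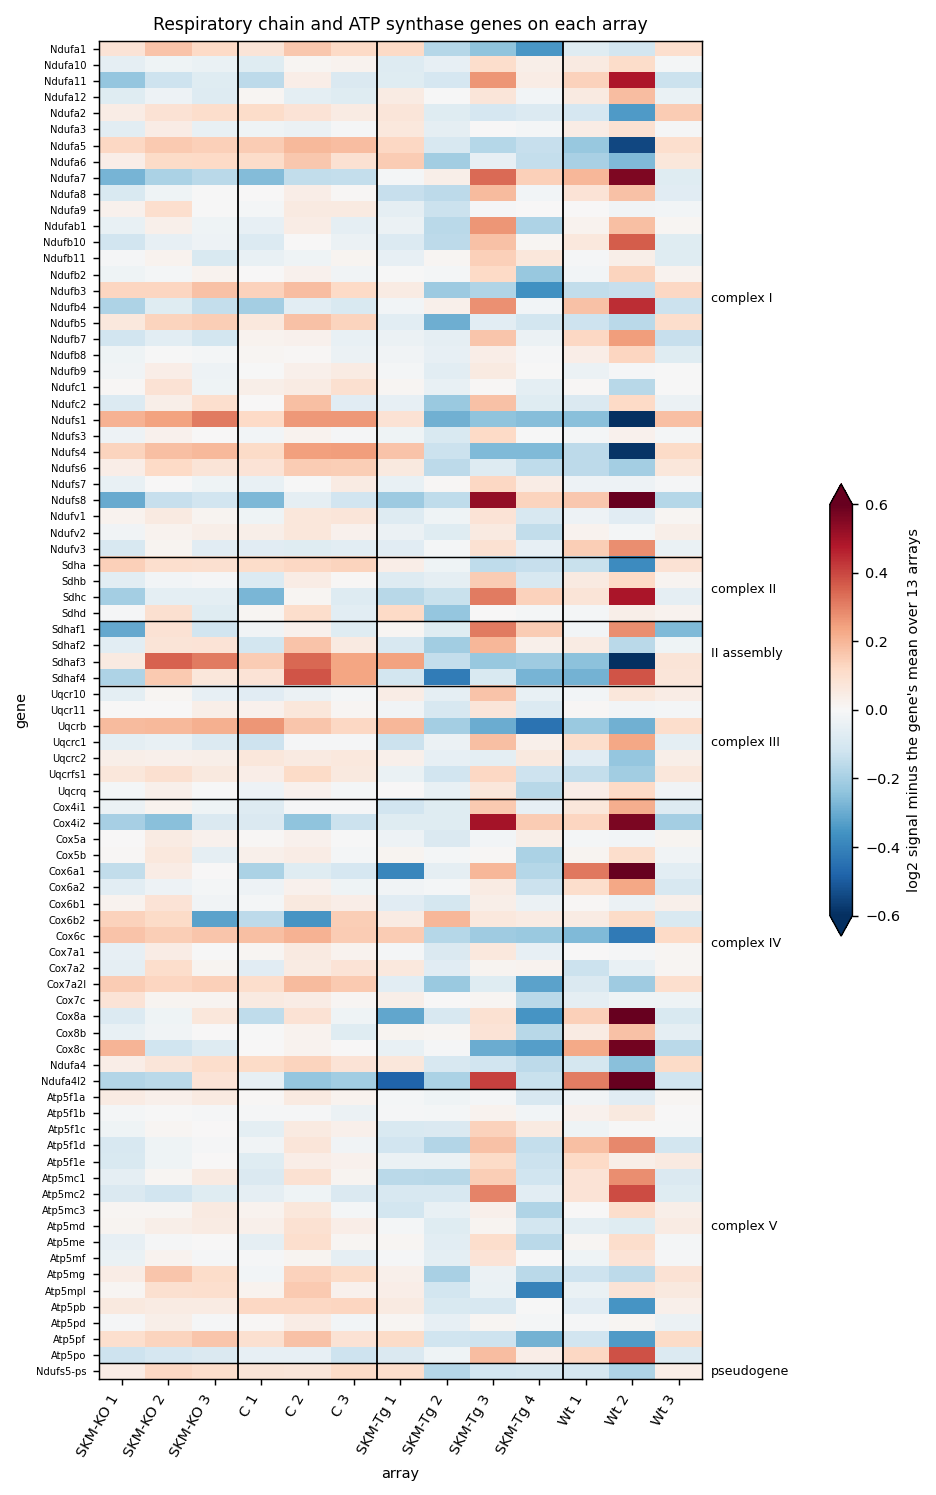
Heat map of the 83 genes (down, by complex) on the 13 arrays (across): the colour gives the log2 signal minus the mean of that gene over all arrays, cut at 0.6 either way. The SKM-KO and C columns are pale, and the strongest colours stand on Wt 2, where 38 genes lie more than 0.2 from their mean.

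**Figure D2:**
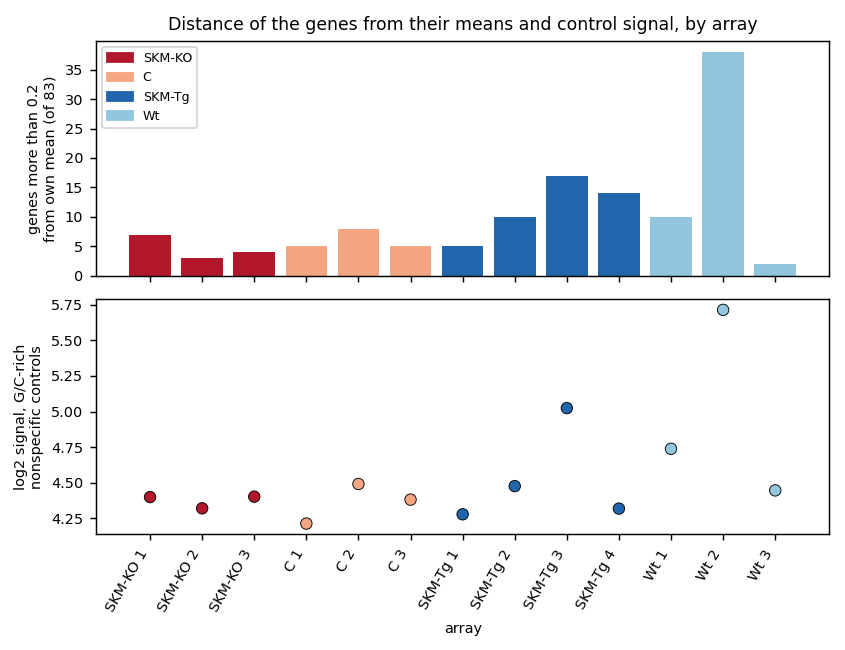
Upper panel: number of the 83 genes more than 0.2 (log2) from their own mean on each array. Lower panel: mean log2 signal of the 11 G/C-rich nonspecific control probe sets, where Wt 2 (5.71) and SKM-Tg 3 (5.02) are highest.

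The signals of the respiratory genes were high and varied little within groups. Of the 83 genes, 58 had a mean log2 signal of 11 or more, a level reached by 296 of the 10425 genes tested. The median SD within a group was 0.037 in SKM-KO, 0.041 in C, 0.111 in SKM-Tg and 0.124 in Wt. Over all genes tested it was 0.098 in SKM-KO, 0.096 in C, 0.172 in SKM-Tg and 0.253 in Wt. The median residual SD of the fit was 0.102 for the respiratory genes, against 0.190 for all genes tested. Among genes at a mean of 11 or more, the median residual SD was 0.075 for the 58 respiratory genes and 0.090 for all 296. Whether signals near the top of the scale were compressed was not tested.

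Loss of DOR was examined in SKM-KO against C. In these muscles the transcripts of all 5 complexes were close to the control levels: 82 of the 83 genes differed by less than 0.1 (log2) and 0 of 83 passed the threshold in either direction. The median log2 difference was -0.02 for the 32 complex I genes, -0.01 for the 4 of complex II, 0.002 for the 7 of complex III, -0.003 for the 18 of complex IV and -0.004 for the 17 of the ATP synthase. With limma, 0 genes had an adjusted p under 0.05, against 0.00959% of all genes tested, and 0 had an unadjusted p under 0.05, against 0.556%. The 95% interval of the difference lay within 1.5-fold either way for 82 genes, and reached 0.22 to either side in the median, on the log2 scale. The fit gives each gene 1 spread over all 4 groups. The median SD was 0.037 in SKM-KO and 0.041 in C, against 0.111 in SKM-Tg and 0.124 in Wt. These p-values and intervals therefore also carry the wider spread of the SKM-Tg and Wt arrays. Differences above 0 numbered 27 of 83 (32.5%), against 54% of all genes tested, and the median difference was -0.009, against 0.008 over all genes tested.

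Within complex I, the 6 measured core subunits, which carry the flavin and the iron-sulphur clusters or bind ubiquinone, differed by -0.04 to 0.04. Ndufv1, the subunit that binds NADH, had log2 signals of 12.31, 12.34 and 12.31 in SKM-KO, against 12.26, 12.35 and 12.36 in C. Ndufs1, the large iron-sulphur subunit, had 10.80, 10.83 and 10.90 in SKM-KO, against 10.71, 10.85 and 10.85 in C. The groups overlapped for both genes, at differences of -0.008 and 0.04. Of the accessory subunits, Ndufb7 had 10.82, 10.87 and 10.83 in SKM-KO, against 10.95, 10.96 and 10.89 in C, a log2 difference of -0.096 (95% interval -0.33 to 0.14). The 3 SKM-KO arrays lay below the 3 C arrays for Ndufb7 and also for Ndufa8, another accessory subunit, with a difference of -0.055.

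In complex II, Sdha, the flavoprotein that oxidises succinate, had 12.15, 12.11 and 12.10 in SKM-KO, against 12.11, 12.13 and 12.14 in C. Sdhb, Sdhc and Sdhd, the iron-sulphur subunit and the membrane anchors, differed by -0.02, 0.004 and -0.01. The lowest difference of all 83 genes was that of Sdhaf4, an assembly factor for the flavoprotein, with 7.68, 8.02 and 7.93 in SKM-KO, against 7.94, 8.24 and 8.10 in C. Its arrays overlapped, and the difference of -0.22 had a 95% interval from -0.57 to 0.13 and a limma adjusted p of 1. In complex III, Uqcrc2, a core protein of the complex, had 12.03, 12.03 and 12.04 in SKM-KO, against 12.07, 12.05 and 12.06 in C, groups that did not overlap at a difference of -0.028.

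In complex IV, the muscle isoforms differed by little. Cox6a2 had 12.07, 12.11 and 12.13 in SKM-KO, against 12.10, 12.16 and 12.11 in C. Cox7a1 had 11.79, 11.89 and 11.84 in SKM-KO, against 11.86, 11.90 and 11.87 in C. Cox8b had 12.13, 12.16 and 12.18 in SKM-KO, against 12.17, 12.20 and 12.10 in C. All 3 genes overlapped between the groups. The ubiquitous isoform Cox6a1 differed by 0.09 and Cox8a by 0.02. The highest difference of the 83 genes, 0.099, was that of the dim testis isoform Cox6b2, with 5.42, 5.40 and 4.96 in SKM-KO, against 5.13, 4.93 and 5.43 in C.

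In the ATP synthase, Atp5f1a, the alpha subunit of the catalytic F1 head, had 12.38, 12.36 and 12.39 in SKM-KO, against 12.34, 12.38 and 12.36 in C. Atp5pb, a subunit of the peripheral stalk, had 11.22, 11.21 and 11.21 in SKM-KO, against 11.28, 11.28 and 11.29 in C. The groups of Atp5pb did not overlap, at a log2 difference of -0.071 (95% interval -0.295 to 0.15, limma adjusted p 1). The c-ring genes Atp5mc1, Atp5mc2 and Atp5mc3, whose proteins have the same mature sequence, differed by -0.003, -0.037 and -0.001. Groups did not overlap for 4 genes in all (4.82%), Ndufb7, Atp5pb, Ndufa8 and Uqcrc2, all lower in SKM-KO, against 2.83% of all genes tested on the lower side, and for 0 genes on the higher side, against 4.66%.

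**Figure D3:**
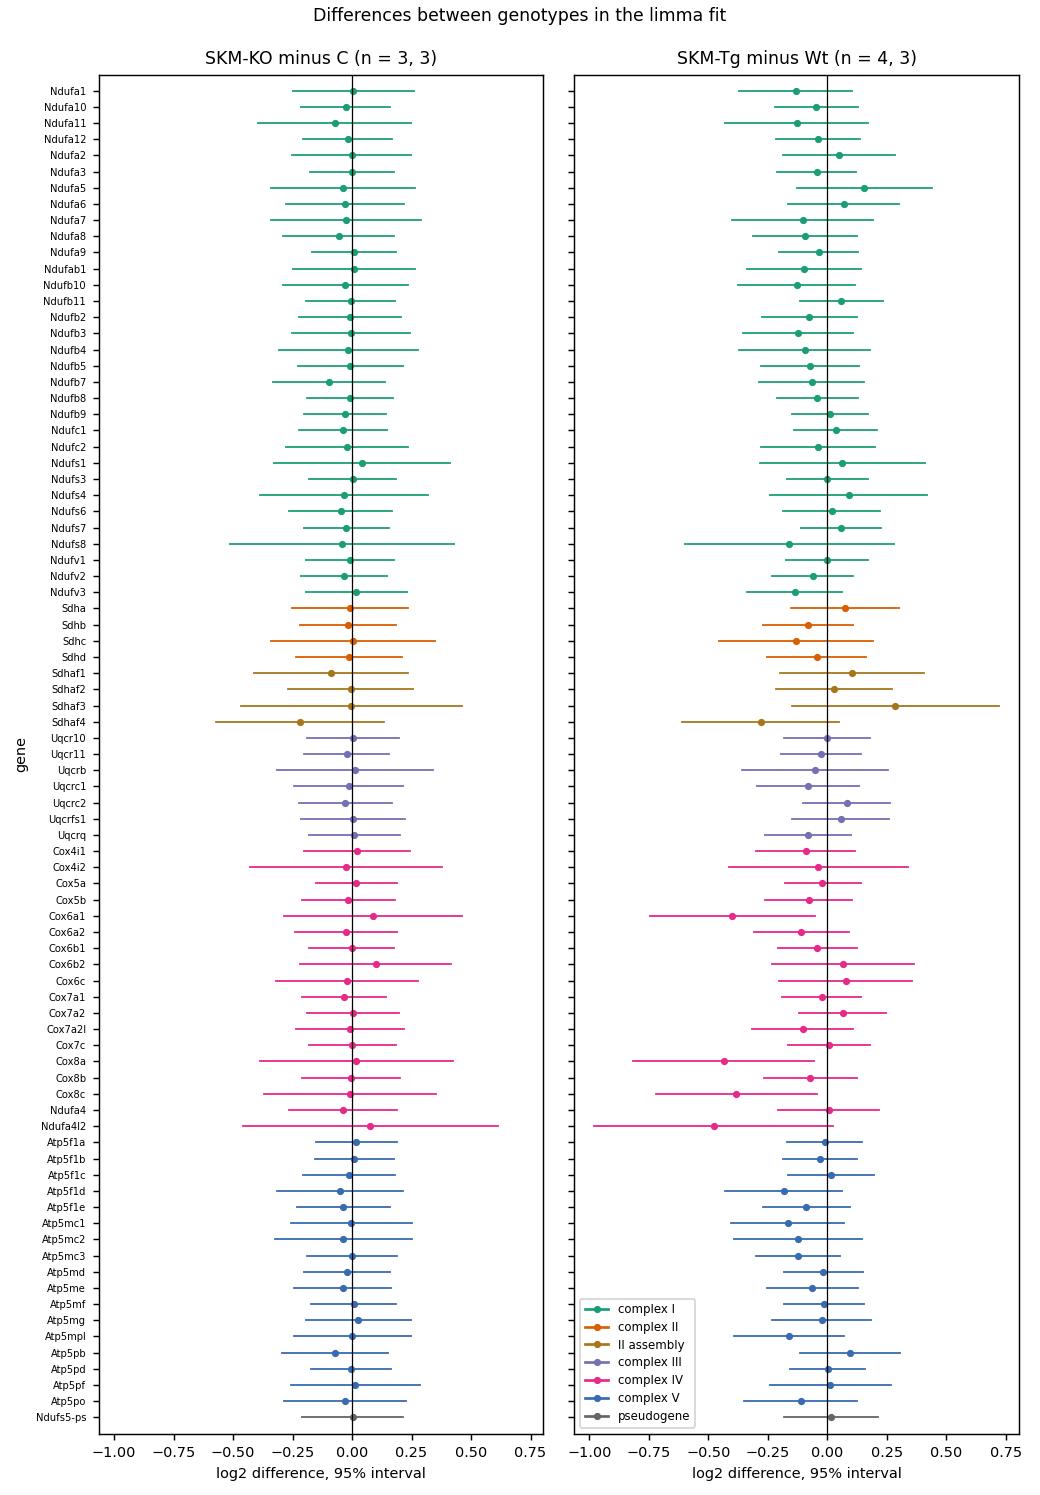
Log2 differences (points) with 95% intervals (lines) from the limma fit for the 83 genes, by complex, for SKM-KO minus C (left) and SKM-Tg minus Wt (right). On the left 82 points lie within 0.1 of 0; on the right the lowest points are Ndufa4l2, Cox8a, Cox6a1 and Cox8c of complex IV.

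The share of genes above 0 moved with single arrays: it was 15 of 83 without C 1, 16 without SKM-KO 2, 42 without SKM-KO 1 and 44 without C 2. Markers of other cells were read in the same fit. The 7 slow fibre markers were all above 0 (0.13 to 0.28, median 0.18), the 9 macrophage markers all above 0 (0.13 to 0.29) and the 7 fat cell markers at -0.06 to 0.58, with 0 of them past an unadjusted p under 0.05 in limma. The 4 Schwann cell and nerve markers were all above 0 (0.16 to 0.58, median 0.33), and Mal, a myelin protein, was the 1 of them with an unadjusted p under 0.05 in limma (adjusted p 1). The 6 fibroblast and matrix markers were at -0.04 to 0.175, the 8 endothelial markers at -0.13 to 0.07 and the 2 erythroid markers at 0.06 and 0.205. The 5 liver plasma protein transcripts were at -2.23 to -0.75, all 5 with an unadjusted p under 0.05 and 0 with an adjusted p under 0.05. The part of these markers in the respiratory genes was not tested.

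Gain of function was examined in SKM-Tg against Wt. The lowest differences were those of 4 complex IV isoform genes that are not the muscle forms, Ndufa4l2, Cox8a, Cox6a1 and Cox8c, and they shrank when Wt 2 was left out. Other such isoforms lay closer to 0: Cox4i1 at -0.09, Cox6b1 and Cox4i2 at -0.04, and Cox6b2 and Cox7a2 at 0.06. With limma, 0 of 83 genes had an adjusted p under 0.05, as had 0% of all genes tested, and 3 had an unadjusted p under 0.05, against 6.89% of all genes tested. All 3 were lower in SKM-Tg (3.61%), against 5.39% of all genes tested on the lower side and 1.5% on the higher side. The median log2 difference was -0.04 over the 83 genes and -0.05 over all genes tested. Differences above 0 numbered 26 (31.3%), against 37.9% of all genes tested. The 95% interval lay within 1.5-fold either way for 76 genes.

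Cox8a, the ubiquitous isoform of subunit VIII, had log2 signals of 8.84, 9.06, 9.25 and 8.80 in SKM-Tg, against 9.30, 9.91 and 9.07 in Wt. SKM-Tg 3 lay above Wt 3, so the groups overlapped, and Wt 2 lay 0.73 above the mean of the other Wt arrays. The log2 difference was -0.44 (95% interval -0.815 to -0.06, limma adjusted p 0.702), and without Wt 2 it was -0.19. Cox6a1 had 9.53, 9.87, 10.12 and 9.75 in SKM-Tg, against 10.24, 10.55 and 9.85 in Wt. Again Wt 3 lay within the SKM-Tg range. Its difference was -0.40 (95% interval -0.75 to -0.05, limma adjusted p 0.702), and without Wt 2 it was -0.23. Both genes had a second probe set, at -0.41 for Cox8a and -0.245 for Cox6a1.

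Cox8c, a testis isoform, had 5.56, 5.6, 5.31 and 5.28 in SKM-Tg, against 5.83, 6.18 and 5.45 in Wt, a difference of -0.38 (95% interval -0.72 to -0.05) that was -0.20 without Wt 2. Ndufa4l2, the hypoxia-responsive paralogue of Ndufa4, had 5.44, 5.73, 6.33 and 5.78 in SKM-Tg, against 6.23, 6.87 and 5.80 in Wt. Its difference was -0.48 (95% interval -0.98 to 0.025), and -0.19 without Wt 2. Both genes were near the dim end of the 83, and SKM-Tg and Wt overlapped in each.

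The muscle isoforms were less dispersed. Cox6a2 had 12.12, 12.13, 12.19 and 12.01 in SKM-Tg, against 12.24, 12.37 and 12.04 in Wt, a difference of -0.11 (95% interval -0.31 to 0.09) that was -0.03 without Wt 2. Cox8b had 12.19, 12.19, 12.26 and 12.01 in SKM-Tg, against 12.23, 12.35 and 12.12 in Wt, a difference of -0.07 that was -0.01 without Wt 2. Cox7a1 had 11.83, 11.75, 11.91 and 11.79 in SKM-Tg, against 11.84, 11.83 and 11.86 in Wt, a difference of -0.02. Over all 13 arrays the signals of Cox6a1 spanned 9.53 to 10.55 and those of Cox8a 8.80 to 9.91, while Cox6a2 spanned 12.01 to 12.37 and Cox8b 12.01 to 12.35. Each probe set has a brightness of its own, so a span describes its gene alone. Cox7a2, the ubiquitous partner of Cox7a1, spanned 11.74 to 11.98 and did not share the dispersion of Cox6a1 and Cox8a. Neither did the ubiquitous isoforms Cox4i1, at 11.93 to 12.26, and Cox6b1, at 11.86 to 12.05. The probe sets of Cox6a1 and Cox8a were also dimmer, with mean log2 signals of 9.92 and 9.16. Those of the other isoforms in this paragraph had means from 11.84 (Cox7a1) to 12.18 (Cox8b). Of other respiratory genes at a similar signal, Ndufs8 (mean 9.87) spanned 9.56 to 10.57 and Sdhd (mean 9.48) spanned 9.25 to 9.60. Whether the dispersion went with the signal or with the isoform was not tested.

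**Figure D4:**
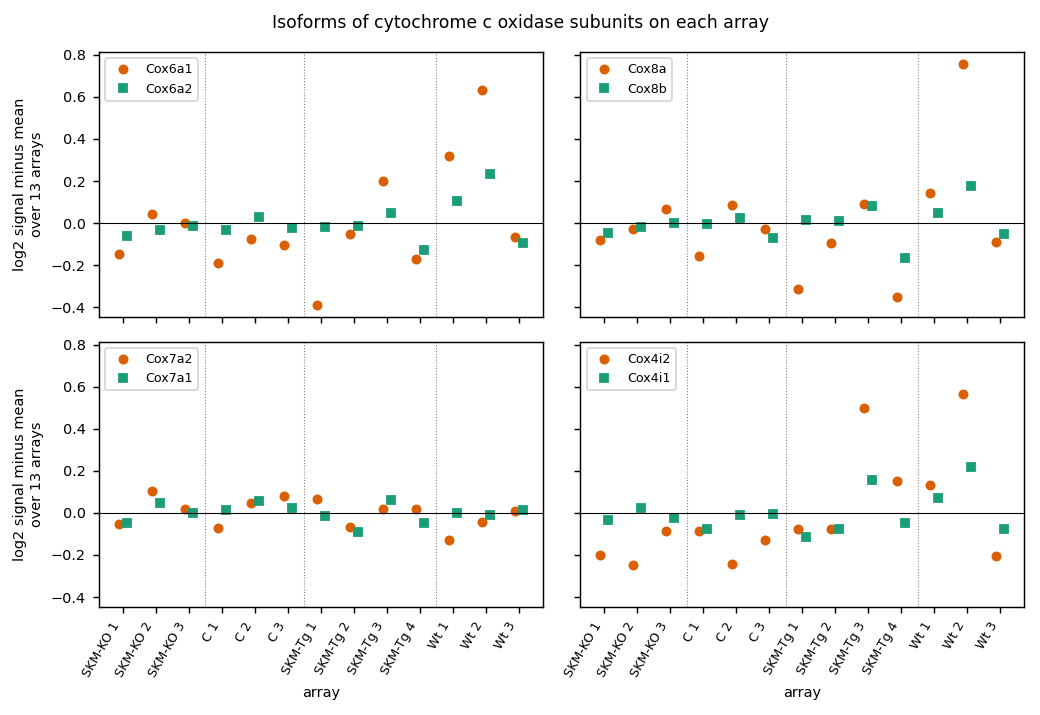
Log2 signal of cytochrome c oxidase isoform genes on each array, minus the mean of each gene over the 13 arrays. Cox6a1, Cox8a and Cox4i2 (circles) lie furthest from 0 on Wt 2, and the partner isoforms Cox6a2, Cox8b and Cox4i1 (squares) lie closer to 0 there; Cox7a1 and Cox7a2 stay near 0.

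In complex I the 32 differences ran from -0.16 to 0.15, with a median of -0.04, and 10 lay above 0. Without Wt 2 they ran from -0.18 to 0.08, with a median of -0.02, and 13 lay above 0. The lowest was that of Ndufs8, an iron-sulphur core subunit, with 9.65, 9.71, 10.40 and 10.00 in SKM-Tg, against 10.03, 10.57 and 9.70 in Wt. The highest was that of Ndufa5, an accessory subunit of the matrix arm, with 12.21, 11.99, 11.91 and 11.95 in SKM-Tg, against 11.86, 11.54 and 12.18 in Wt. Wt 2 was the extreme Wt array for both, high for Ndufs8 and low for Ndufa5. Without Wt 2 the difference of Ndufs8 was 0.08 and that of Ndufa5 was -0.006, each on the other side of 0.

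In complex II, Sdha differed by 0.07, Sdhb by -0.08, Sdhc by -0.13 and Sdhd by -0.045. Without Wt 2 these values were -0.04 for Sdha, -0.05 for Sdhb, 0.03 for Sdhc and -0.035 for Sdhd. Of its assembly factors, Sdhaf3 had 6.20, 5.82, 5.73 and 5.75 in SKM-Tg, against 5.71, 5.02 and 6.04 in Wt, the highest difference of the 83 genes at 0.285 (95% interval -0.15 to 0.72). Wt 2 was the lowest array by far, and without it the difference was -0.001. The 7 complex III genes differed by -0.08 to 0.08, and by -0.13 to 0.015 without Wt 2. The 17 ATP synthase genes differed by -0.18 to 0.10 (-0.14 to 0.02 without Wt 2), the lowest being Atp5f1d, the delta subunit of F1, with 11.54, 11.48, 11.83 and 11.51 in SKM-Tg, against 11.83, 11.94 and 11.54 in Wt. SKM-Tg 3 stood among the higher Wt arrays for Atp5f1d, and the difference of -0.18 was -0.10 without Wt 2.

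Groups did not overlap for 0 of the 83 genes, against 3.96% of all genes tested. Without Wt 2, limma gave 0 genes with an adjusted p under 0.05 and 0 with an unadjusted p under 0.05, against 5.59% of all genes tested, and the differences ran from -0.23 to 0.24 with a median of -0.03. Other single arrays moved the count of 3 as well. It was 6 without SKM-Tg 3 (against 12.3% of all genes tested) and 10 without Wt 3 (against 30.8%). It was 0 without SKM-Tg 4, where the share of all genes tested is not given here. The 9 macrophage markers were at -0.54 to 0.38 (8 of 9 below 0), the 8 endothelial markers at -0.48 to -0.05, the 7 slow fibre markers at -0.24 to -0.07 and the 7 fat cell markers at -0.14 to 1.81, none past an adjusted p under 0.05. The 6 fibroblast and matrix markers were at -0.535 to 0.001, the 4 Schwann cell and nerve markers at -0.12 to 0.23 and the 2 erythroid markers at -0.39 and -0.28. Without Wt 2 the macrophage markers were 4 above 0 and 5 below (median -0.012, against -0.288 with it), the endothelial markers 3 above and 5 below, and the erythroid markers at -0.14 and 0.009. The fibroblast and matrix markers were then all below 0, at -0.27 to -0.04, and so were the slow fibre markers, at -0.24 to -0.04. The Schwann cell and nerve markers were at -0.06 to 0.175 (median 0.17, against 0.04 with Wt 2). The fat cell markers reached further, at -0.12 to 2.82 (median 0.39, against 0.36 with Wt 2). Of the fat cell markers, 2 then had an unadjusted p under 0.05 in limma and 0 an adjusted p under 0.05. The part of all these markers in the respiratory genes was not tested.

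The effects of gain and loss were set against each other as SKM-Tg minus Wt less SKM-KO minus C. The 83 values ran from -0.55 to 0.29, and no gene passed the threshold. With limma, 0 of 83 had an adjusted p under 0.05, against 0.0192% of all genes tested, and 0 had an unadjusted p under 0.05, against 3.1%. The lowest values were -0.55 for Ndufa4l2 (95% interval -1.29 to 0.18), -0.49 for Cox6a1 (95% interval -0.996 to 0.02) and -0.45 for Cox8a (95% interval -1.01 to 0.10). Without Wt 2 they were -0.27 for Ndufa4l2, -0.32 for Cox6a1 and -0.21 for Cox8a, and the 83 values ran from -0.32 to 0.33. Differences above 0 numbered 28 (33.7%), against 38.3% of all genes tested, and without Wt 2 they numbered 38 (45.8%), against 40.3%. The count at an unadjusted p under 0.05 was 5 without Wt 3, against 15.1% of all genes tested, 2 without SKM-Tg 3, against 5.59%, and 0 without Wt 2, against 3.58%. Intervals within 1.5-fold either way were reached by 73 genes, fewer than in either comparison alone.

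The 2 control groups were compared as Wt minus C, which shares the Wt arrays with SKM-Tg minus Wt. The respiratory genes split here: Ndufa7, Cox6a1 and Ndufa4l2 were on the higher side in Wt, and Ndufa5, Ndufa6, Ndufs1, Ndufs4, Ndufs6, Cox6c, Sdha, Sdhaf3 and Atp5pb on the lower side. With limma, 0 of 83 had an adjusted p under 0.05, against 0.00959% of all genes tested. An unadjusted p under 0.05 was found for 12 (14.5%), against 27.8% of all genes tested; 3 were higher in Wt, against 16.2%, and 9 lower, against 11.6%. Differences above 0 numbered 41 (49.4%), against 58.8% of all genes tested, and the median was -0.003, against 0.062 over all genes tested.

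Ndufa5 had 11.86, 11.54 and 12.18 in Wt, against 12.23, 12.28 and 12.27 in C, a log2 difference of -0.40 (95% interval -0.70 to -0.10, limma adjusted p 0.145). Cox6c, a complex IV subunit with 1 main isoform, had 11.54, 11.38 and 11.93 in Wt, against 11.99, 12.01 and 11.96 in C, a difference of -0.37. All 3 Wt arrays lay below all 3 C arrays for both genes, with Wt 3 closest to C. Ndufs1 had 10.34, 9.95 and 10.77 in Wt, against 10.71, 10.85 and 10.85 in C, a difference of -0.45 (95% interval -0.82 to -0.08) with Wt 3 inside the C range. Sdhaf3 had 5.71, 5.02 and 6.04 in Wt, against 6.11, 6.30 and 6.19 in C, a difference of -0.61.

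On the higher side, Ndufa7, an accessory subunit of complex I, had 10.62, 10.98 and 10.34 in Wt, against 10.15, 10.26 and 10.27 in C, a difference of 0.42 (95% interval 0.10 to 0.73). All 5 of its kept probe sets lay above 0, at 0.35 to 0.465. Cox6a1 differed by 0.42, with all 3 Wt arrays above the C arrays, and Ndufa4l2 by 0.54. Groups did not overlap for 18 genes: 4 were higher in Wt (4.82%), against 15.4% of all genes tested, and 14 lower (16.9%), against 8.5%. The 2 erythroid markers were at 0.42 and 0.93, the 8 endothelial markers at -0.43 to 1.003 and the 9 macrophage markers at -1.07 to 0.87; their part in these values was not tested. Without Wt 2 the erythroid markers were at 0.28 and 0.53, the endothelial markers at -0.19 to 0.65 and the macrophage markers at -0.77 to 0.82. The Schwann cell and nerve markers were then at 0.095 to 0.73 and the liver transcripts at -1.205 to -0.49. The slow fibre markers were at -0.29 to 0.01, the fat cell markers at -0.16 to 0.485 and the fibroblast and matrix markers at -0.83 to 0.03.

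The counts differed with the Wt arrays kept. Without Wt 2, 1 gene had an unadjusted p under 0.05 in limma, against 9.37% of all genes tested, and 0 an adjusted p under 0.05. The log2 differences of the 83 genes then ran from -0.34 to 0.26, and 29 lay above 0. Ndufa5 was at -0.24, Cox6c at -0.25, Ndufs1 at -0.25 and Sdhaf3 at -0.33 without Wt 2, and on the higher side Ndufa7 and Cox6a1 were both at 0.25 and Ndufa4l2 at 0.26. Without Wt 3, 25 of 83 genes had a limma adjusted p under 0.05 (30.1%), against 39.5% of all genes tested. Of these, 11 were higher in Wt, against 22.8% of all genes tested, and 14 lower, against 16.7%. The same fit gave 32 genes an unadjusted p under 0.05, against 50.4%. Leaving out Wt 1, C 1, C 2 or C 3 left 6, 6, 5 and 4 genes with an unadjusted p under 0.05. The shares of all genes tested in these fits are not given here. With the control signal as a covariate, an alternative chosen after the data were seen, 1 gene had an unadjusted p under 0.05. That held for 655 of the 10425 genes tested.

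The SKM-Tg and Wt arrays were also read one by one, as levels relative to the mean of the 6 SKM-KO and C arrays. On Wt 3, 0 of the 83 genes lay more than 0.2 from that mean, and on SKM-Tg 1, 5 did. On the other arrays the number was 21 on SKM-Tg 2, 28 on SKM-Tg 4, 26 on Wt 1, 31 on SKM-Tg 3 and 45 on Wt 2. Those were 25.3%, 33.7%, 31.3%, 37.3% and 54.2% of the 83 genes, against 43.5%, 48.2%, 52.9%, 60% and 75.8% of all genes tested. On Wt 3 and SKM-Tg 1, 20.5% and 32.2% of all genes tested lay more than 0.2 away. The median absolute difference was 0.026 on Wt 3 and 0.047 on SKM-Tg 1, against 0.092 to 0.242 on the other 5 arrays. Over all genes tested it was 0.097 on Wt 3 and 0.128 on SKM-Tg 1, against 0.169 to 0.455 on the other 5. So 1 Wt array and 1 SKM-Tg array lay closest to the SKM-KO and C arrays in these genes. No label separates these 2 arrays from the other 5, and the cause was not tested.

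The genes that Wt 2 placed low and those it placed high behaved differently across the other arrays. The 16 low genes include Ndufs1, Ndufs4, Ndufs6, Ndufa5, Ndufa6, Sdha, Sdhaf3, Uqcrc2, Cox6c, Cox7a2l, Ndufa4 and Atp5pb. Their median difference from the SKM-KO and C mean was -0.26 on SKM-Tg 2, -0.235 on SKM-Tg 3, -0.28 on SKM-Tg 4, -0.26 on Wt 1 and -0.45 on Wt 2. It was -0.02 on SKM-Tg 1 and -0.04 on Wt 3. The 22 high genes include Ndufa7, Ndufs8, Ndufb4, Sdhc, Cox6a1, Cox8a, Cox4i2, Atp5mc2 and Atp5po. Their median was 0.25 on SKM-Tg 3, 0.19 on Wt 1 and 0.47 on Wt 2, the 3 arrays with the highest control signal, and -0.04 to 0.01 on the other 4. Below that mean lay 14 of the 16 low genes on SKM-Tg 1 and on Wt 3, and 15 or 16 on each of the other arrays. These sets were chosen on Wt 2, so their values on that array only describe the choice. Genes of the whole array chosen on Wt 2 in the same way gave medians of -0.394 to -0.244 on SKM-Tg 2, SKM-Tg 3, SKM-Tg 4 and Wt 1 for the 2834 low ones, and of 0.323 on SKM-Tg 3 and 0.251 on Wt 1 for the 4552 high ones.

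**Figure D5:**
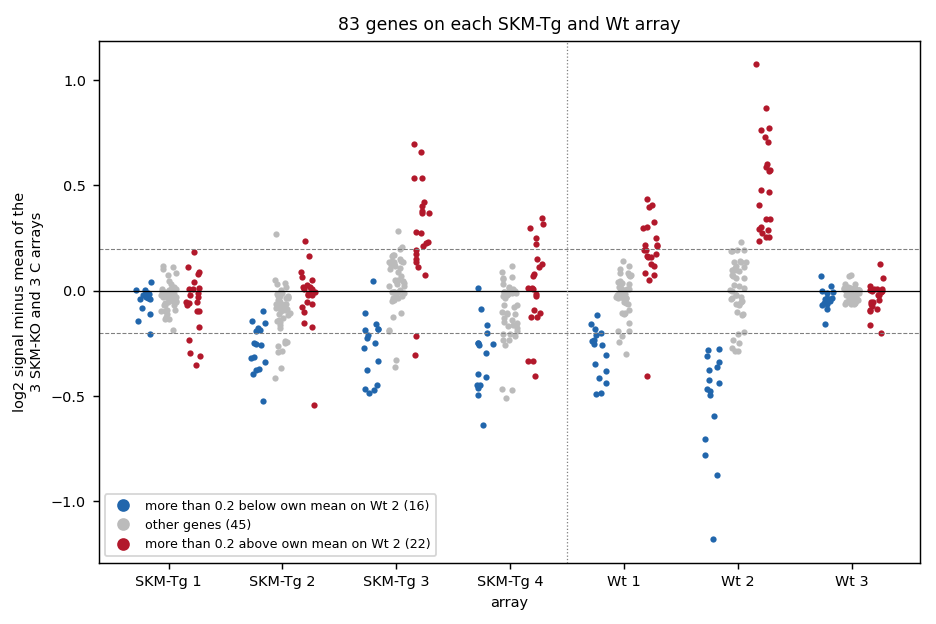
Each point is 1 of the 83 genes on 1 SKM-Tg or Wt array, as log2 signal minus its mean over the 3 SKM-KO and 3 C arrays; dashed lines mark 0.2 either way. Points gather at 0 on SKM-Tg 1 and Wt 3, the blue genes lie below 0 on SKM-Tg 2, 3 and 4 and Wt 1 and 2, and the red genes lie mostly above 0 on SKM-Tg 3, Wt 1 and Wt 2.

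Different probe sets of a gene gave a check within the arrays. Of the 83 genes, 38 had at least 2 probe sets past the filter. All probe sets of a gene had the same sign for 18 of 38 genes in SKM-KO minus C, 29 in SKM-Tg minus Wt and 28 in Wt minus C, and 0 of the 134 probe sets had a limma adjusted p under 0.05 in any of these comparisons. Ndufs4, an accessory subunit of complex I, was at -0.415 in Wt minus C by its brighter probe set and at -0.67 by its dimmer one. The 4 probe sets of Ndufs8 were at 0.31 to 0.38 in Wt minus C and at -0.24 to -0.16 in SKM-Tg minus Wt, all with Wt 2 kept.

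Other genes of the pathway were read from lists of known members. The mitochondrial DNA encodes 13 subunits, and 0 of them were measured by a probe set used here. A list of electron carriers and coupling proteins, with 18 genes tested, also holds enzymes of ubiquinone synthesis such as Coq2 and Coq7. All 18 are called carriers here for short. Of these 18 genes, 38 assembly factors and 24 regulators of mitochondrial biogenesis, 0 had a limma adjusted p under 0.05 in any of the 4 comparisons. In SKM-KO minus C, 0 of them had an unadjusted p under 0.05. The median in SKM-KO minus C was 0.02 for the carriers, -0.01 for the assembly factors and 0.04 for the regulators.

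In SKM-Tg minus Wt, 1 carrier of 18, 1 assembly factor of 38 and 3 regulators of 24 had an unadjusted p under 0.05, against 6.89% of all genes tested. Without Wt 2 the counts were 1, 1 and 4, against 5.59%. Perm1, a muscle regulator downstream of PGC-1 coactivators, had 7.95, 7.76, 8.38 and 8.29 in SKM-Tg, against 8.62, 9.02 and 8.41 in Wt. Ppargc1b, a PGC-1 coactivator, had 7.05, 6.86, 7.56 and 7.48 in SKM-Tg, against 7.60, 7.73 and 7.87 in Wt. Twnk, the mitochondrial DNA helicase, had 6.93, 7.03, 7.23 and 6.93 in SKM-Tg, against 7.30, 7.36 and 7.30 in Wt. For these 3 of the 24 regulators all SKM-Tg arrays lay below all Wt arrays, as they did for 290 of all 10425 genes tested. The differences of these 3 genes were -0.59, -0.50 and -0.29 (limma adjusted p 0.692, 0.702 and 0.692). Without Wt 2 they were at -0.42, -0.50 and -0.27.

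The carrier was Coq2, which makes an intermediate of ubiquinone, with 9.41, 9.41, 9.63 and 9.49 in SKM-Tg, against 9.11, 9.00 and 9.37 in Wt, a difference of 0.325 (limma adjusted p 0.692) and 0.245 without Wt 2. The assembly factor was Ndufaf2, with 9.08, 8.84, 8.92 and 8.87 in SKM-Tg, against 8.72, 8.47 and 8.88 in Wt, a difference of 0.24 and 0.13 without Wt 2. In Wt minus C, 5 carriers of 18, 12 assembly factors of 38 and 7 regulators of 24 had an unadjusted p under 0.05, against 27.8% of all genes tested, with Coq7 at -0.585, Tmem126b at -0.73 and Polrmt, the mitochondrial RNA polymerase, at 0.85. Without Wt 2 these counts were 1, 4 and 4, against 9.37% of all genes tested, with Coq7 at -0.58, Tmem126b at -0.49 and Polrmt at 0.45.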

How the data were processed

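Affymetrix strip arrays of 13 quadriceps RNA samples were read from the deposited value table. The authors normalised the arrays with RMA, per the submitters' processing notes, which left log2 values for 45141 deposited probe sets, from 2.14 to 13.21, with array medians of 4.85 to 4.94. No scanner files were used here, so probe sets could not be called present or absent and the number of arrays limits the precision.

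Control probe sets (104) were left out. Symbols came from the platform annotation: 28898 probe sets had 1 symbol, 551 several and 15588 none. Older symbols of 14 ATP synthase genes were updated through RefSeq. A gene was read from its brightest probe set with 1 symbol. Group means of the 10425 genes with a mean of 4.9 or more were fitted over all 13 arrays with limma 3.58.1 in R 4.3.3 (lmFit, eBayes, two-sided, Benjamini-Hochberg over all genes tested, threshold 0.05), with 9 residual and 3.62 prior degrees of freedom. The fit was tested on simulated data with independent noise of 1 spread per gene on all 13 arrays. That test cannot show how the fit behaves where the groups differ in spread, as they do here. Because brightness differs between probe sets, signals were not read as relative amounts of different genes.

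The genes, lists and tests were chosen with earlier results of these data known. Genes named in the text were, per comparison and direction, up to 8 respiratory genes with the smallest p, the isoform families, the core subunits of complex I, the subunits of complex II, and up to 4 genes per related list. Alternatives varied normalization, filter, probe set, fit and arrays. Samples were numbered in accession order.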

Additional observations from a re-analysis of the deposited data

Results flagged for a closer look

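Single arrays stood far from the rest of their group in SKM-Tg, the 1 group with 4 arrays. The gap of the highest or lowest array to its neighbour, divided by the range, passed Dixon's critical value for 8 of the 52 named genes or summaries read this way (15.4%). It did so for 11 of all 83 respiratory genes (13.3%) and for 5.01% of all genes tested, where chance gives about 1 in 20. The genes share the same 4 arrays and many were named for a small p, so these counts are not of independent values. The ratios of Atp5f1d and Ndufb4 equal the critical value of 0.829 to 3 decimals. The log2 signals of these arrays were 11.83 for Atp5f1d, 11.51 for Atp5mc1, 10.60 for Atp5mc2, 11.26 for Ndufb4 and 11.10 for Ndufb7 on SKM-Tg 3, the SKM-Tg array with the highest control signal. They were 11.96 for Cox6c and 10.68 for Ndufs1 on SKM-Tg 1, the SKM-Tg array closest to the SKM-KO and C arrays. The value for Cox6b2, a dim testis isoform, was 5.48 on SKM-Tg 2. The other 3 arrays of Atp5mc2 had 10.21, 10.21 and 10.24, and those of Ndufs1 had 10.30, 10.33 and 10.35. The causes were not tested.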

How the results depend on the processing

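No paired analysis was possible because the groups share no replicate number: the titles carry a separate mouse number for each array, and whether neighbouring numbers mark a litter or day is not stated. In no alternative did a respiratory gene pass an adjusted p under 0.05 for the knockout, the gain of function or the difference of their effects. The following counts are of the 83 genes, and the causes of the shifts were not tested. In SKM-KO minus C, cyclic loess put 14 genes above 0 and array quality weights, whose estimation stopped before its tolerance, gave 1 gene at an unadjusted p under 0.05. The unadjusted count from a fit of SKM-KO and C alone is not given here. In SKM-Tg minus Wt, 45 genes lay above 0 after quantile normalization (median 0.005), 12 with weights and 12 without both Wt 2 and SKM-Tg 3, and the count at an unadjusted p under 0.05 was 0 with weights, 0 in a fit of these groups alone and 1 with the control signal as a covariate. In the difference of the effects, 51 lay above 0 after quantile normalization (median 0.024), 15 with weights and 48 with the covariate, and 1 gene had an unadjusted p under 0.05 without both arrays and 1 with the covariate. In Wt minus C, that count was 20 with trend and robust settings, 0 with weights, 2 in a separate fit, 2 without both arrays and 1 with the covariate, which also put 14 genes above 0 (median -0.052). The covariate and the fit without both arrays were chosen after seeing the data. With the covariate, 820 of all 10425 genes tested had a limma unadjusted p under 0.05 in SKM-Tg minus Wt. That number was 550 in the difference of the effects and 655 in Wt minus C. Without both arrays it was 541 and 1303 in these 2 comparisons. For the other settings of this paragraph no count over all genes tested is given here.

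Leaving out each array in turn gave 15 to 44 genes above 0 and medians of -0.025 to 0.003 in SKM-KO minus C. In SKM-Tg minus Wt it gave 0 to 10 genes at an unadjusted p under 0.05, 19 to 32 above 0 and medians of -0.058 to -0.022. In the difference of the effects the ranges were 0 to 5, 20 to 38 and -0.054 to -0.011. In Wt minus C they were 1 to 32, 29 to 45 and -0.018 to 0.013, with 0 to 25 genes at an adjusted p under 0.05. The number of arrays limits what can be seen: the median reach of the unadjusted 95% intervals was 0.223 (log2) in SKM-KO minus C and in Wt minus C, 0.208 in SKM-Tg minus Wt and 0.305 in the difference of the effects, and an adjusted p asks for larger differences.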
